A study of Mus musculus with 2 samples.

Results

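Type II hair shaft keratins are the basic partners in the keratin pairs that fill the hard hair shaft. They were represented on the array by 6 genes, Krt81, Krt82, Krt83, Krt84, Krt85 and Krt86. Their probes were found by gene name among the non-control probes of both arrays, which gave 8 of 55681 probes and 6 of 34797 gene names. Krt85 had 3 probes and each of the other 5 genes had 1, and every probe occupied 1 spot per array. All are shown separately.

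RNA came from wild-type mice, of the C57BL/6J strain per the study's methods. There was 1 tooth array and 1 skin array, both labelled as postnatal day 0. The study's methods give an age that is 1 day older, and the label was followed. No genetic change or treatment was applied in either sample, and how many animals each RNA came from is not given in the sources used here. The comparison addressed which transcripts distinguish 2 organs of ectodermal origin. With 1 array per tissue, no difference below has a replicate check and no test was run. In whole tissue, fewer cells of a type and less RNA per cell cannot be told apart.

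Hair keratins assemble as obligate pairs of 1 type I (acidic) and 1 type II (basic) protein, and their many cysteines are cross-linked into a rigid fibre. They appear one after another as cells leave the matrix of the hair bulb. Krt85 is among the earliest, in matrix, cuticle and lower cortex, Krt82 belongs to the shaft cuticle, and Krt81, Krt83 and Krt86 follow in the cortex. Krt84 is known mainly from the filiform papillae of the tongue. At birth, mouse follicles are still growing their first shafts, whereas a tooth germ builds enamel and dentin and makes no hair.

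The probe sequences are shown first because they set which transcripts each value can stand for. All pairs of member probes were aligned without gaps, 28 in all, and 3 of these pairs, formed by 3 probes, shared a long stretch. These were the probe of Krt81, the probe of Krt83 and the Krt85 probe for which the files give no position. The Krt81 and Krt83 probes had 51 of 55 overlapping bases in common (92.7%). These probes are printed 5′ to 3′, with the bases that differ between them over the shared stretch in capitals.
Krt81: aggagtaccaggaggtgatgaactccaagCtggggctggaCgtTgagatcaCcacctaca
Krt83: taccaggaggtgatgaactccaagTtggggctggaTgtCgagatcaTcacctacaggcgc

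The file's own annotation assigned 3 RefSeq transcripts to the Krt81 probe, of Krt81, Krt83 and Krt86, and 2 to the Krt83 probe. The accession given first for the Krt83 probe belongs to Krt87 in RefSeq (GRCm38.p6), and the other is of Krt83. Hence the values of these probes are not assigned to a single gene here, and the array's names are used as labels. Of the probes outside the member genes, one for Krt77 came nearest to the 3 sequences, with at most 34 identical bases.

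The remaining 5 probes had no such overlap with each other or with the first 3. The most alike pair, Krt84 and Krt86, had 31 of 59 bases in common. In 3 of the 8 member probes the letters AATAAA, the usual signal for cleavage and polyadenylation, occurred on the printed strand, against 10.1% of 55675 probes on the array. A stretch of 30 bases from each of these 5 probes is shown, with AATAAA in capitals where present.
Krt84, bases 26 to 55: ttctgggttttcAATAAActtgccaagcta
Krt86, bases 27 to 56: ctttgcgttcccAATAAActaattgcagca
Krt85, probe beside Krt84, bases 24 to 53: tcctccccacaaAATAAAtcatcctattgt
Krt82, bases 1 to 30: ctggctctcaaatagctaagaaaattgaac
Krt85, outlying probe, bases 1 to 30: aaactactctaatcacacttcttgggttac

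The arrays carried the tissues that their labels name. The enamel and dentin genes Amelx, Ambn, Enam, Mmp20, Dspp and Dmp1 were well above background in tooth and in 0 of 6 cases in skin. The epidermal genes Krt1, Krt10, Flg and Lor were 8.39 to 12.89 higher in skin on the log2 scale. The inner root sheath, the follicle layer around the growing shaft, was present in the skin RNA. There, 5 of 5 measured keratin genes of this layer were at least 2-fold higher than in tooth, against 14.2% of named genes. Of these, Krt25 was well above background in skin alone, and its inclusion fixes its direction. All 4 epidermal genes were nevertheless well above background in tooth, as were 4 of the 5 inner root sheath genes, and the part of skin or follicle RNA in the tooth values of the members was not tested.

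Type II hair shaft keratins were higher in skin at 7 of 8 probes, by at least 2-fold in each. The share of all probes that was at least 2-fold higher in skin was 13.3%, among 33080 probes well above background on at least 1 array. By the brightest probe per gene the count was 5 of 6 genes, against 14.2% of 17597 named genes. It was 4 of 6 with a median shift, quantile normalization or normexp background correction, and 3 of 6 with spike-in scaling. At 3 of the 8 probes the difference reached 16-fold, against 2.12% of all probes. Among these, Krt83 and the outlying Krt85 probe had tooth values at the limit of measurement, and with normexp Krt83 (3.63) was under 16-fold. The median of the member probes was 2.63 (log2, skin minus tooth), and that of all 33080 was 0.04, with quartiles at -0.48 and 0.51. Only Krt84 was lower in skin. The probes of the shared stretch are 3 of the 7, and without them 4 of 5 probes were at least 2-fold higher and the median was 3.46.

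Values below are intensities as the extraction software corrected them, followed by log2 values scaled so that the 75th percentile of each array is 0. The error after ± is the software's own estimate for a single spot, and it holds no variation between animals, dissections or labelling reactions. A probe was called well above background by the same software. All 8 member probes passed this call in tooth and 7 of 8 in skin, against 56.7% and 52.5% of all probes.

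**Figure D1:**
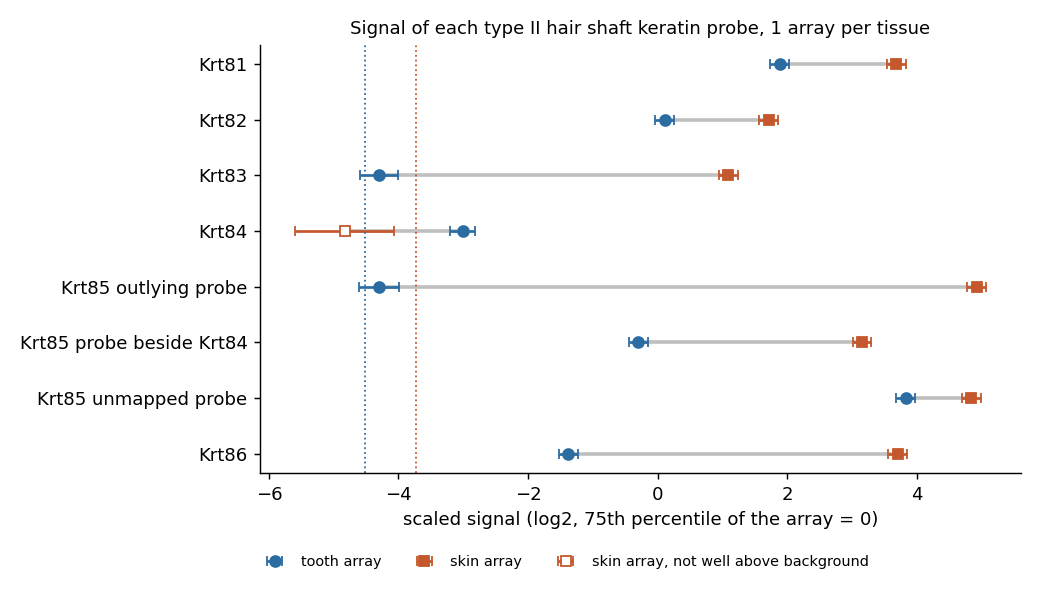
Scaled log2 signal of each member probe on the tooth array (circles) and the skin array (squares), with bars for the software's error of a single spot. Dotted lines mark the lowest signal called well above background on each array (-4.52 in tooth, -3.73 in skin). Only Krt84 lies to the left in skin, and the tooth values of Krt83 and of the outlying Krt85 probe sit beside the tooth line.

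Krt85 is the keratin of the matrix and young shaft. Probes named Krt85 gave both the largest difference of the family and the smallest of those in favour of skin. The outlying one lay 84.4 kb from the other mapped Krt85 probe, and the unmapped one is among the 3 with the shared stretch. Whether these measure Krt85 was not tested. The outlying probe read 21.8 in tooth and 8388 in skin, or -4.29 and 4.92 when scaled. This is a difference of 9.22 ± 0.34, or 596-fold. Of all 33080 probes, 48 (0.145%) had a difference at least as high. The tooth signal of this probe lay 0.22 above the lowest value called well above background there, so the fold rests on a tooth value at the limit of measurement.

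The Krt85 probe beside Krt84 read 347 in tooth and 2461 in skin. Its difference was 3.46 ± 0.20, an 11.0-fold higher signal in skin, and 2.71% of all probes were at least as high. Neither of its values was near background. The unmapped Krt85 probe, 1 of the 3 with the shared stretch, read 6077 in tooth and 7923 in skin. Its difference of 1.01 ± 0.20 (2.02-fold) was only just past the 2-fold threshold. It was below 2-fold with a median shift (0.77), quantile normalization (0.96), normexp background correction (0.91) and scaling on spike-in transcripts (0.39), so its side of the threshold depends on the processing. Unlike at the outlying probe, the tooth signal was far from background, 8.34 above the lowest detected value.

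The Krt85 probes thus spanned 8.21 on the log2 scale. Among the 636 genes with exactly 3 probes well above background on both arrays, the median span was 0.48 and the 90th percentile 1.35. Krt85 ranked 2 of these 636. A single value for Krt85 therefore depends on which probe stands for the gene, and whether each probe measures that gene was not tested. The brightest probe, which was used for counts by gene, is the unmapped one with the smallest difference.

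The probes labelled Krt83 and Krt86, both names of cortex keratins, were also far higher in skin. As stated above, the Krt83 probe is not assigned to a single gene. The Krt86 probe was well above background in both tissues, with 165 in tooth and 3607 in skin, or -1.38 and 3.71 when scaled. The difference was 5.08 ± 0.21, or 33.9-fold, and 1.28% of all probes were at least as high. Its tooth signal was clear of background, 3.14 above the lowest detected value, so this large difference was measured on both sides.

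The Krt83 probe read 21.7 in tooth and 588 in skin, or -4.30 and 1.09 when scaled. Its difference was 5.39 ± 0.32, or 42.0-fold, with 1.11% of all probes at least as high. As with the outlying Krt85 probe, the tooth signal lay only 0.21 above the lowest detected value. The differences of Krt83 and Krt86 were 0.31 ± 0.39 apart, which is within the error of single spots.

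The probe labelled Krt81, another cortex keratin, differed far less, and it too is not assigned to a single gene. Its probe read 1583 in tooth and 3553 in skin, or 1.89 and 3.69 when scaled. The difference was 1.80 ± 0.20, or 3.48-fold, and 6.83% of all probes were at least as high. The Krt81 and Krt83 probes share most of their bases, yet their differences were 3.60 ± 0.38 apart. In tooth the Krt81 signal was 6.40 above the lowest detected value, and that of Krt83 only 0.21.

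Krt82, the keratin of the shaft cuticle, was 3.05-fold higher in skin. Its probe read 462 in tooth and 908 in skin, or 0.11 and 1.72 when scaled, and these differ by 1.61 ± 0.20. Of all probes, 7.74% were at least as high. Krt82 and Krt81 were 0.19 ± 0.29 apart, again within the error of single spots. The tooth signal of Krt82 was also clear of background, 4.62 above the lowest detected value.

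Krt84, the keratin of the tongue papillae, was the exception. Its probe read 53.2 in tooth, where it was well above background, and 9.69 in skin, where it was not. Scaled, the values were -3.01 and -4.83, a measured difference of -1.82 ± 0.79. The skin value is only a limit, and with the background removed by the extraction software tooth exceeded skin by at least 1.65-fold. With another background correction (normexp) the difference was -0.04, so this bound does not hold under both. This pattern, well above background in tooth alone, was shared by 6.87% of 55675 probes. The share of probes at least 2-fold higher in tooth was 13.3%, but Krt84 cannot be placed past that threshold from its limit.

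Markers of oral mucosa and tongue, tissue that a tooth dissection could include, were measured beside it. Of 4 such genes, Krt4 and Krt76 were, like Krt84, well above background in tooth only. Krt13 was 2.36 higher in skin by its brightest probe but 0.44 higher by its other probe, which is within 2-fold. Krt24 was 0.80 higher in skin. A bound could be given for Krt4, at least 2.96-fold higher in tooth, while the Krt76 signal was too dim for one. The part of oral tissue in the Krt84 signal was not tested.

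**Figure D2:**
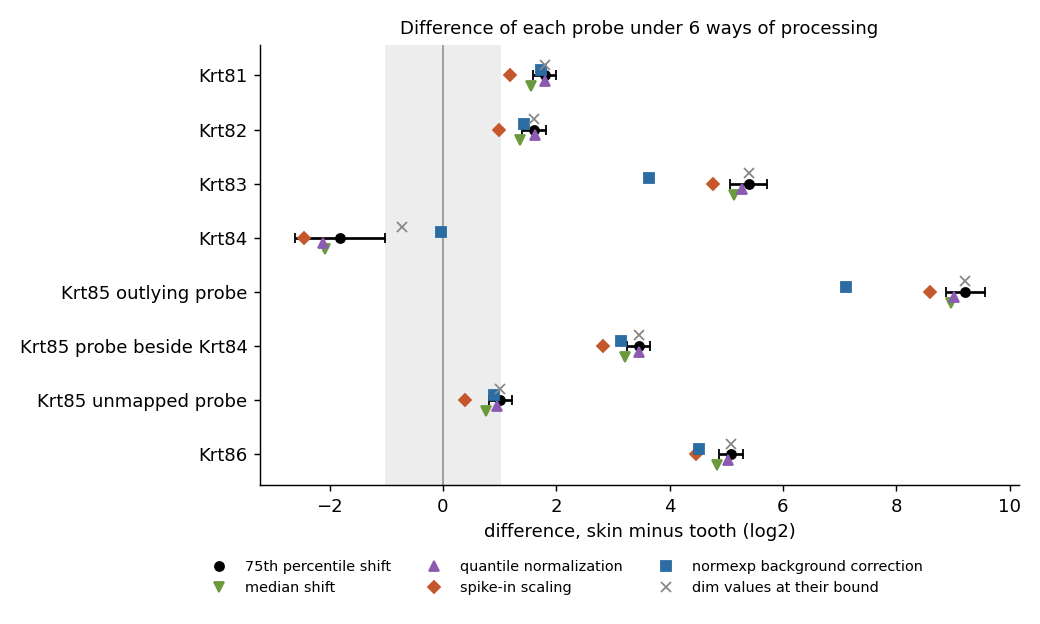
Difference of each member probe, skin minus tooth on the log2 scale, under 6 ways of processing. Black circles with bars are the values after the 75th percentile shift and their single-spot error, the other symbols are alternatives, and the grey band marks differences under 2-fold. The 3 probes at the far right stay at 3.63 or beyond under every setting drawn. Krt82 enters the band with spike-in scaling (0.98), and Krt84 with normexp (-0.04) and at its bound (-0.72). The unmapped Krt85 probe enters it with spike-in scaling (0.39), a median shift (0.77), quantile normalization (0.96) and normexp (0.91).

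Scaling shifted all members together. Before scaling, the 8 spike-in transcripts detected in both samples had a median difference of -0.01, whereas the 75th percentile was 428 in tooth and 276 in skin. Scaling on the spike-ins moved the median of all probes to -0.59, and it left 3 of 6 genes and 5 of 8 probes at least 2-fold higher in skin. Krt82 and the unmapped Krt85 probe were the members to cross the threshold. Scaling on the median moved the median of all probes to -0.21, and 4 genes and 6 probes were then past 2-fold. Since these are constant shifts, the distance of each member from the median of all probes is the same under both.

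**Figure D3:**
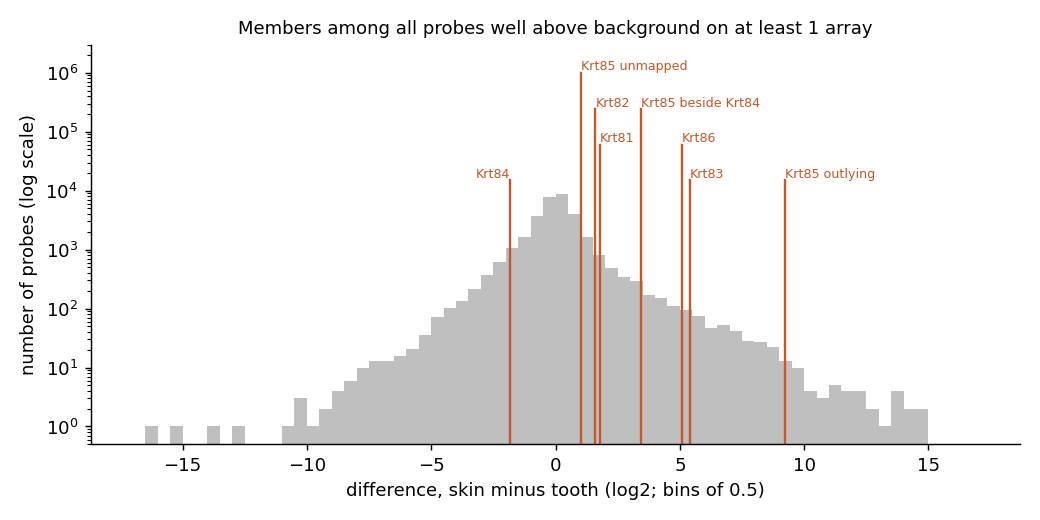
Number of probes (log scale) by difference, skin minus tooth on the log2 scale, for the 33080 probes well above background on at least 1 array (grey, bins of 0.5). Vertical lines mark the 8 member probes, and the heights of the lines carry no value. Krt84 lies on the tooth side, the unmapped Krt85 probe, Krt82 and Krt81 lie in the shoulder of the distribution, and the outlying Krt85 probe lies in its far right tail.

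The mapped members lie together on mouse chromosome 15, where type II keratin genes are clustered. Per the file headers, in build mm9, the order along the chromosome was the outlying Krt85 probe at chr15:101261695-101261754, Krt83 at chr15:101263556-101263615, Krt81 at chr15:101290583-101290642, Krt86 at chr15:101310355-101310414, the other mapped Krt85 probe at chr15:101346117-101346176, Krt84 at chr15:101355458-101355517 and Krt82 at chr15:101371660-101371719. The exons or introns under these probes were not analysed here. All were on the minus strand except Krt86. The 7 probes spanned 110 kb.

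The outlying Krt85 probe lay 1.86 kb from the Krt83 probe and 84.4 kb from the other mapped Krt85 probe. The latter was 9.34 kb from Krt84. The pair at the low-coordinate end, outlying Krt85 and Krt83, both lay near the limit of detection in tooth and differed by 9.22 and 5.39. Krt84 and Krt82 at the other end, 16.2 kb apart, had opposite measured directions. The Krt84 skin value is only a limit, and its difference was -0.04 with normexp. Neighbouring probes therefore did not share 1 size of difference across the cluster.

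**Figure D4:**
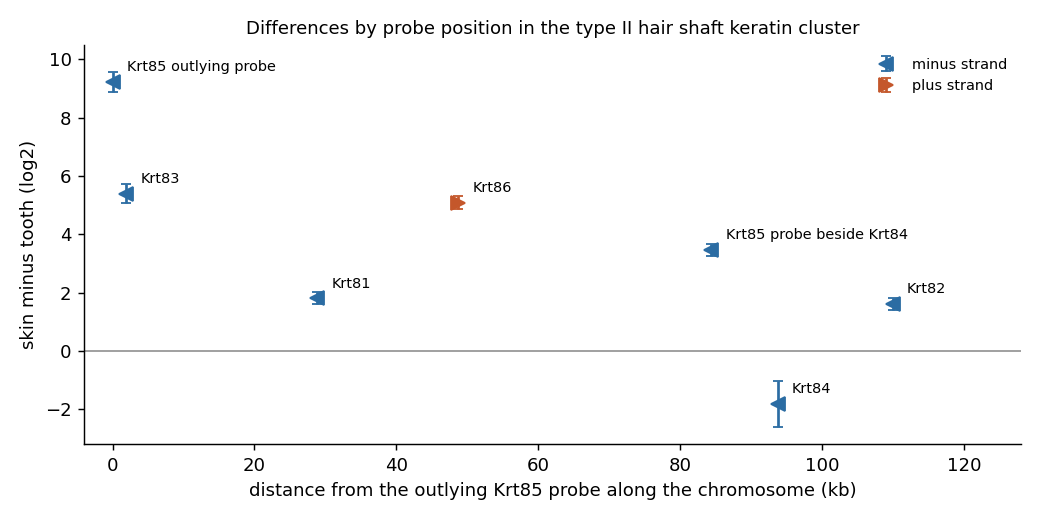
Difference of the 7 mapped member probes, skin minus tooth on the log2 scale, by distance in kb from the outlying Krt85 probe. Triangles point left for the minus strand and right for the plus strand, and bars are single-spot errors. Differences run from 9.22 at the left end to -1.82 at Krt84, and the 2 mapped Krt85 probes are 84.4 kb apart.

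Krt82 and Krt84, neighbours with opposite measured directions, were the members matched in the RefSeq promoter table (GRCm38.p6). Their promoters are shown for that contrast, which for Krt84 rests on a skin value near background. Within 250 bases before the start, both held the run CCCAAGCTCATAAA. This run of 14 bases was picked by comparing these sequences, so its presence in both is no finding. Among 32851 promoters it occurred on either strand in 2, or 0.00609%, and these were the promoters of Krt82 and Krt84 themselves. The run began 102 bases before the start in Krt82 and 104 in Krt84. The letters ATAAAAG, a form of the TATA box, began 32 and 33 bases before the start, and 4.83% of promoters held them on either strand. The sequences run 5′ to 3′ on the minus strand, with both runs in capitals.
Krt82, chr15:101550673-101550771: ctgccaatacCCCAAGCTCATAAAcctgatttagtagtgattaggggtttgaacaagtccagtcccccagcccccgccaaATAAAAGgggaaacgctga
Krt84, chr15:101532835-101532934: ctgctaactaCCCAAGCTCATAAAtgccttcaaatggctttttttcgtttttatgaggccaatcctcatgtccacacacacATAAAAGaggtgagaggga

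The type I partners of the hair shaft were higher in skin wherever they were measured. Of 9 type I hair shaft keratins on the array, 4 were well above background in both tissues, and all 4 were at least 2-fold higher in skin, against 14.2% of named genes. Another 4 were well above background in skin alone, and their inclusion fixes their direction. Krt39 was too dim on both arrays to be measured. The median was 3.62 over the 4 genes measured on both sides. With the 4 detected in skin alone it was 6.89, or 5.71 with their tooth values at the bound and 4.38 with normexp. Krt35, which pairs with Krt85 in the young shaft, had a difference of 10.47. The tooth signal of Krt35 was close to the lowest value called well above background there. The size of its difference therefore rests on a tooth value near the limit of measurement. The cortex keratins Krt33a, Krt33b and Krt34 were not well above background in tooth and were at least 308-fold, 164-fold and 92.7-fold higher in skin. Like the bound of Krt84, these rest on the background removed by the extraction software. Whether each holds with normexp is not shown here. Krt31, also of the cortex, was 4.89 higher.

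Smaller differences were found for Krt32, a cuticle keratin, at 2.35 and for Krt36 at 1.75. Krt40 was at least 10.1-fold higher in skin, a bound on the same basis. Of the 9 type I genes on the array, 4 were well above background in tooth. All 8 type II probes were, against 56.7% of all probes. However, 3 of these 8 share a stretch and are not assigned to single genes. The tooth signals of Krt83 and of the outlying Krt85 probe lay at the limit of measurement.

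Other structural genes of the shaft were also higher in skin. All 4 that were measured on both arrays exceeded 2-fold in favour of skin, against 14.2% of named genes. Dsg4 was well above background in skin alone, and its inclusion fixes its direction. Its other probe was too dim on both arrays. The median over the 5 was 5.66. S100a3, a calcium-binding protein of the cuticle, differed by 7.06 and Tchh (trichohyalin, of the inner root sheath and medulla) by 6.44. Gprc5d, a receptor-like protein of the keratin-forming zone, differed by 5.66. Padi3, an enzyme that converts arginine in trichohyalin, differed by 2.79, and Dsg4, the desmosomal cadherin of the shaft, was at least 11.1-fold higher.

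**Figure D5:**
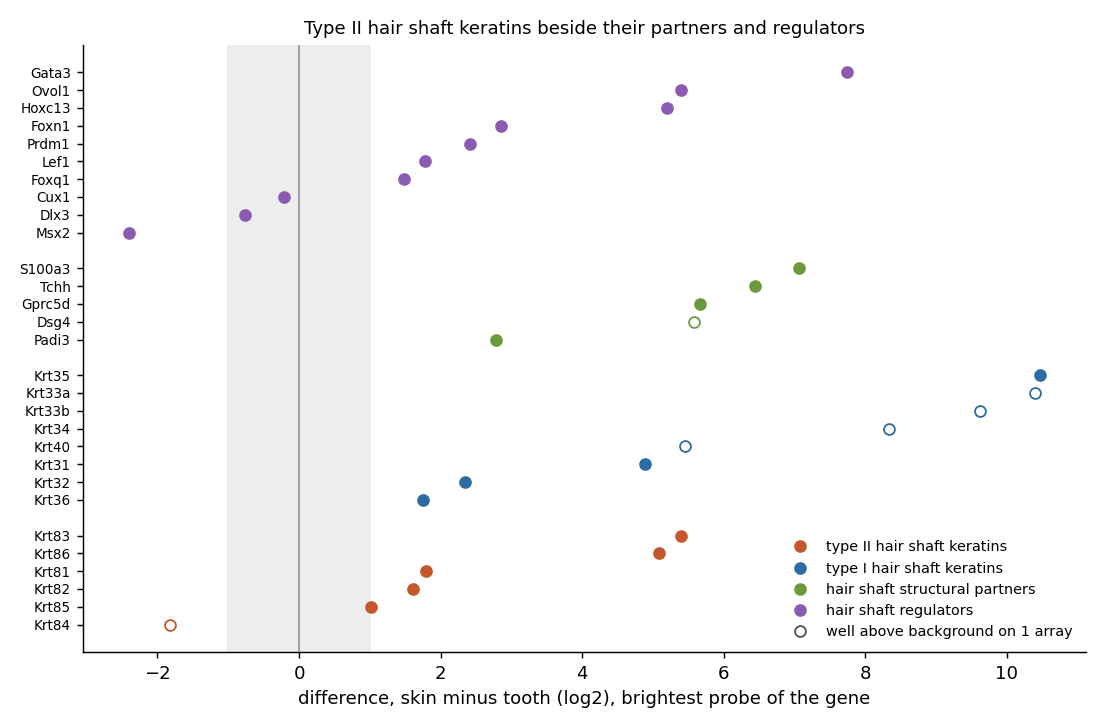
Difference of each measured gene by its brightest probe, skin minus tooth on the log2 scale, for type II and type I hair shaft keratins, structural partners and regulators. Open circles are genes well above background on 1 array, whose plotted difference is as measured and not a bound, and the grey band marks differences under 2-fold. All type I keratins and structural partners lie to the right of the band, Krt84 is the type II gene on the left, and Msx2 lies on the left among the regulators.

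Transcription factors with known roles in the hair follicle, not all of them in the shaft, were divided. Of 10, 7 were at least 2-fold higher in skin, against 14.2% of named genes, and 6 were with spike-in scaling. In the main setting, 1 was higher in tooth by the same margin, against 15.4% of named genes, and 2 were within 2-fold. The median was 2.10. Hoxc13, which activates hair keratin genes directly, had scaled values of -2.46 in tooth and 2.75 in skin, which are 5.20 apart. Foxn1, the gene mutated in nude mice, differed by 2.85. Gata3, a regulator of the inner root sheath, differed by 7.75, and Ovol1 by 5.39. Prdm1, Lef1 and Foxq1 differed by 2.41, 1.79 and 1.48.

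Of the other factors, Msx2, which is active in both organs, differed by -2.40, and Dlx3, which is needed for hair, teeth and bone, by -0.76. The direction of Cux1 depended on the probe, since the brightest gave -0.21 and the others 0.56 and 0.25.

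Outside these lists, 5 named genes came nearest in difference to the outlying Krt85 probe. Over the 2 arrays, Krt79 differed by 9.28, Sprr1b by 9.13, Lor by 9.11, Olfr18 by 9.36 and Trex2 by 9.04. Krt79 marks the upper follicle and its ducts, and Sprr1b and Lor encode proteins of the cornified envelope of epidermis. A likeness in 1 difference carries no more than that size.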

How the data were processed

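Total RNA from 1 tooth and 1 skin sample was labelled with 1 dye and hybridised to Agilent mouse arrays. The deposited values of each spot are intensities from Agilent Feature Extraction (version 10.7.3.1), corrected for background and trends, with very dim values replaced by surrogates (22.8% of non-control spots in tooth, 25.5% in skin, none of a member). The authors also deposited a table in which each value was the ratio of the processed intensity to 1 factor per array (430.7 for tooth, 274.5 for skin).

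Spots with outlier flags were dropped, log2 intensities were averaged per probe and each array's 75th percentile over non-control probes was subtracted. A probe was detected when over 50% of its spots were well above background (56.7% of probes in tooth, 52.5% in skin). For a dim value, the bright signal was set against the lowest detected signal of the dim array, or the probe's own value if higher. All such bounds rest on the background removed by the extraction software. The lowest detected signal is a single value per array and not a limit found for each probe. Probes with at least 8 such spots had a median SD of 0.08 (279 probes) and 0.09 (269 probes), which gives a difference an SD of 0.11. Only 2 arrays limit the precision.

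The text names all member probes, the measured genes of the lists and the 5 genes nearest in difference. The members and lists were chosen with earlier results of these data known. Of 6 member accessions, 5 matched RefSeq (GRCm38.p6). The sequence of the unmapped Krt85 probe is not reported here. The steps, in Python 3.11.15 (numpy 2.4.6, pandas 2.3.3) and R 4.3.3 (limma 3.58.1, for normexp with an offset of 50), were tested on simulated data.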

Additional observations from a re-analysis of the deposited data

How the results depend on the processing

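No difference of a member probe changed sign under the alternatives. The median over the type II probes, 2.63 as reported, was 2.38 with a median shift, 2.0 with spike-in scaling, 2.44 with normexp and 3.46 over the 7 probes well above background on both arrays. Leaving out the 3 probes of the shared stretch, an alternative chosen after seeing the data, gave 3.46 over 5 probes, with 4 of 5 probes and 3 of 4 genes at least 2-fold higher in skin. Spike-in scaling left 3 of 6 genes past that threshold, and the median shift, quantile normalization and normexp each left 4, since the unmapped Krt85 probe fell short. The type I median, 6.89 as reported, was 6.65 with a median shift, 6.53 with quantile normalization, 6.27 with spike-in scaling, 4.38 with normexp, 3.62 over the 4 genes on both arrays, 5.45 over all 9 genes without a filter and 5.71 at the bound, and the type I count was 4 of 4 on both arrays. The causes were not tested.

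By probe, differences ranged over the alternatives from 1.18 to 1.82 for Krt81, 0.98 to 1.63 for Krt82, 3.63 to 5.41 for Krt83, 4.46 to 5.10 for Krt86, 7.12 to 9.24 for the outlying Krt85 probe, 2.83 to 3.47 for the one beside Krt84, 0.39 to 1.03 for the unmapped one and -2.45 to -0.04 for Krt84. The normexp correction moved Krt83 and the outlying Krt85 probe, both dim in tooth, to 3.63 and 7.12. Values near background limit Krt83, Krt84 and that Krt85 probe. No paired analysis was possible because each tissue had 1 array.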
